A study of Bos taurus with 2 samples.

Results

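The subunits of respiratory complexes II, III, IV and V encoded in the nuclear genome were examined in the *longissimus thoracis* (LT) muscle of fetal calves. The 41 genes were taken by name, as subunits of these complexes, with no threshold on their values: 4 of complex II, 9 of complex III, 13 of complex IV and 15 of complex V. Accessions of array probes matched 38 of them, through 93 probes, among 19554 genes with a value in the whole experiment. *UQCRC2*, *COX5A* and *COX7C* were not matched and are not analysed here. Their transcripts may be represented by probes that carry identifiers missing from the gene table.

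Japanese Black cows, inseminated with male-sorted semen of a single sire, were fed at 60% of their nutritional requirement in the LN (low nutrition) group and at 120% in the HN (high nutrition) group, before and throughout gestation. Fetuses were collected at 8.5 months post-conception, on day 260 ± 8.3 of gestation. Total RNA of 4 fetuses per group was pooled, those of the lowest body weight in the LN group and those of the highest in the HN group, and each pool was hybridized to 1 Agilent Bovine (v2) array. Diet and selection by body weight therefore cannot be told apart, no replicate exists, and no test between the pools was possible. Values are log2 signals after quantile normalization, and differences are given as log2 LN/HN, which is negative where the LN pool was lower.

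The complexes of the inner mitochondrial membrane pass electrons from food-derived substrates to oxygen and use the energy to make ATP. Complex II (succinate dehydrogenase) oxidizes succinate, an intermediate of the tricarboxylic acid cycle, and hands the electrons to ubiquinone. Complex III passes them to cytochrome c, complex IV (cytochrome c oxidase) passes them to oxygen, and complex V (ATP synthase) is driven by the proton gradient. In oxidative muscle fibres these subunits are among the abundant transcripts. Several complex IV subunits exist in a muscle form and a general form, and muscle shifts toward the muscle form during development.

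The subunits of complexes II to V differed little between the pools. Among the 38 genes, the lowest log2 LN/HN was -0.21 (*UQCRC1*) and the highest 0.06 (*SDHC*), so that 0 of 38 were past a log2 difference of 0.32 (a 25% increase or its inverse, the threshold of the study for its gene lists in pathway analysis) in either direction. Of all genes with a value, 18.0% were past this fold threshold (9.11% lower and 8.85% higher in the LN pool). Of the 2074 genes whose mean signal lay within that of the subunits (log2 10.97 to 16.73), 6.08% were past it (3.62% lower and 2.46% higher). The direction was mostly one way. In the LN pool 29 of 38 subunits were lower, with a median log2 LN/HN of -0.051 and an SD of 0.068 between the genes, against 50.7% of all genes and 50.6% of the genes of the same signal range. The medians of those sets were -0.0033 and -0.0023. The differences between the pools were narrower in that signal range (SD of 0.17 between genes, against 0.29 for all genes), as the plot of log2 LN/HN against signal shows.

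**Figure D1:**
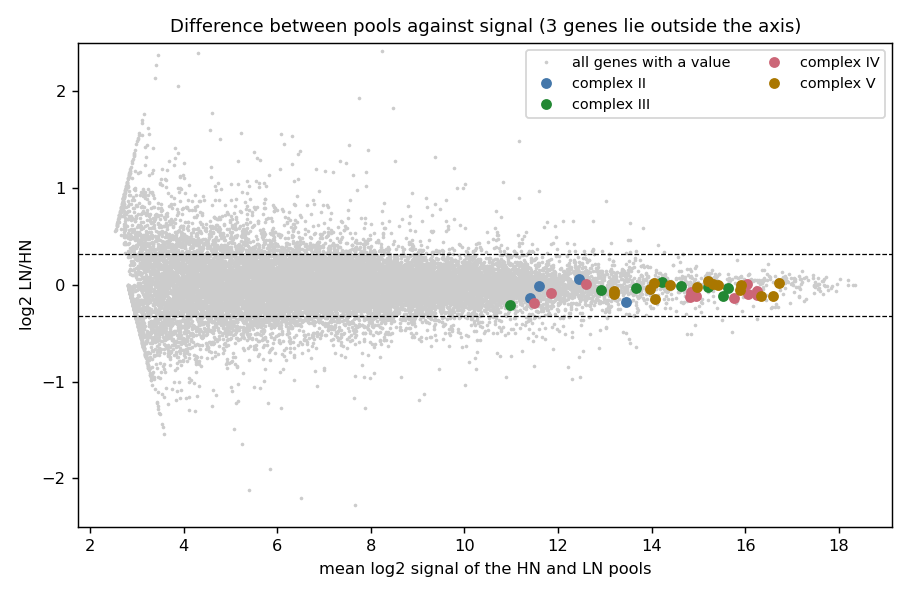
Log2 LN/HN of each gene (vertical axis) against its mean log2 signal in both pools (horizontal axis), with all genes in grey and the subunits of complexes II to V in colour. Dashed lines mark the fold threshold (log2 0.32). The subunits lie between log2 signals of 10.97 and 16.73 and between -0.21 and 0.06, inside the dashed lines.

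The differences were set against the spread between spots of the same probe on these arrays. Among 42 probes printed in several spots, the SD of the log2 LN/HN of a single spot was 0.085, a 95% limit of 0.17 (1.12-fold). The 9 of these probes with a log2 signal of 10 or more, which are closer to the subunits in signal, gave an SD of 0.049 and a limit of 0.096 (1.07-fold). Past the first limit, 3 of 38 subunits were lower (7.89%), and in the same signal range 12.4% of genes were lower by as much (21.5% of all genes). These were *SDHB*, *UQCRC1* and *COX6A1*, and each came inside this limit under some settings, *SDHB* (-0.16) and *COX6A1* (-0.14) without normalization and *UQCRC1* (-0.088) with its brightest probe. No subunit was higher past it, against 9.79% of genes in that range and 20.8% of all genes. Past the second limit, 14 subunits were lower (36.8%) and none was higher, against 24.8% lower and 21.3% higher among the genes in the range and 32.0% and 30.7% among all genes. Both limits are for a single spot and were not scaled for the number of probes, although 29 of the subunits had several. The limits given for isoform pairs below were scaled for it. Spots of the same arrays do not show error that differs from array to array. The scanner software gave a larger error of log2 LN/HN, with a median of 0.20 over the subunit probes. That is about the size of the lowest subunit value (-0.21). Variation among fetuses was not measured by the pools.

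No spot was saturated, and the brightest subunit probe had intensities of 119270 (HN) and 115180 (LN), against a scanner limit of 776887. All 93 probes were well above background on both arrays. Defining genes of skeletal muscle were present, with log2 signals of 17.57 (HN) and 17.53 (LN) for *ACTA1*, the actin of the sarcomere, and 14.51 and 14.36 for *DES*, the intermediate filament of muscle. In a bulk sample, fewer cells of a type and less RNA per cell cannot be told apart.

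Complex II has 4 subunits, all encoded in the nucleus, and they did not move together. *SDHB*, the iron-sulfur protein that carries electrons through the enzyme, had a log2 signal of 13.53 in HN and 13.35 in LN (log2 LN/HN -0.18, 1 probe). *SDHA*, the flavoprotein that oxidizes succinate, had 11.48 and 11.34 (-0.14). Its 4 probes were all lower in the LN pool but ranged from -0.33 to -0.01, in the order of their signal. The dimmest *SDHA* probe (log2 6.71 in HN and 6.39 in LN) gave -0.33, past the fold threshold, and the brightest (15.58 and 15.57) gave -0.01. The *SDHA* value thus depended on which probes were averaged. The membrane anchors, which hold the enzyme in the inner membrane and bind ubiquinone, were nearly level. *SDHC* had 12.43 in HN and 12.48 in LN (log2 LN/HN 0.057, probes 0.043 and 0.070), the highest value of all subunits, and *SDHD* had 11.59 and 11.57 (-0.015). The highest subunit was instead *COX6A2* (0.044) after the normexp background correction and *ATP5F1A* (0.092) with the brightest probe of a gene. The median of the complex was -0.078, and 3 of its 4 genes were lower.

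In complex III, 7 of 8 genes were lower in the LN pool, mostly by less than the spot error, with a median of -0.034. *UQCRC1*, a core protein on the matrix side, had the lowest value of all subunits, with log2 signals of 11.08 in HN and 10.87 in LN (log2 LN/HN -0.21). This value rested on its dimmer probes. The 2 *UQCRC1* probes with log2 signals near 9 gave -0.32 and -0.33, while those at 12.07 and 14.24 in the HN pool both gave -0.09. *UQCRC1* was -0.088 with its brightest probe and -0.087 with its probes of a mean log2 signal of at least 10, the latter being an alternative added once the data had been seen.

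The electron-carrying subunits of complex III encoded in the nucleus were close to level. *CYC1*, cytochrome c1, had log2 signals of 14.62 in HN and 14.61 in LN (-0.017), and its 3 probes had values of both signs. *UQCRFS1*, the Rieske iron-sulfur protein, had 13.69 and 13.65 (-0.037), with 3 probes between -0.042 and -0.030. Among the small accessory subunits, *UQCRH*, the hinge protein that docks cytochrome c, was lowest, with 15.58 in HN and 15.46 in LN (-0.11, 1 probe). *UQCRQ* had 12.95 and 12.90 (-0.051), the mean of probes that disagreed, at -0.18 and 0.08. *UQCR10* (15.22 and 15.19, -0.027) and *UQCR11* (15.64 and 15.61, -0.031) differed by less than either spot error. *UQCRB* alone was higher in the LN pool in this complex, with 14.21 in HN and 14.23 in LN (0.026), and it was lower in 2 of the 11 other processing settings.

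Complex IV had the lowest median of the 4 complexes, -0.099, and 9 of its 11 genes were lower in the LN pool. The catalytic core of this enzyme is encoded in mitochondrial DNA, and the genes measured here are the accessory subunits around it. The 5 genes outside the 3 pairs of muscle and general forms were all lower, from -0.14 to -0.075. *COX5B*, which binds zinc, had log2 signals of 15.84 in HN and 15.70 in LN (log2 LN/HN -0.14), and all 3 probes were lower (-0.20 to -0.10). *COX7B* had 14.88 and 14.75 (-0.13, probes -0.16 and -0.09). *COX4I1*, the ubiquitous form of the largest accessory subunit, had 15.01 and 14.89 (-0.12), and its 4 probes ranged from -0.19 to -0.07. *COX6B1*, which faces the intermembrane space, had 16.11 and 16.01 (-0.099, 3 probes), and *COX6C* had 14.87 and 14.79 (-0.075, 1 probe). All 13 probes of these genes had the same sign. In the whole complex, 6 of 11 genes were lower past the limit of bright spots and none was higher, against 24.8% lower and 21.3% higher among genes of the same signal range. Membership moved with the processing. Under some settings *COX4I1* (-0.068), *COX6B1* (-0.083) and *COX7B* (-0.091) came inside this limit. Under others *COX6C* (-0.13), *COX7A2* (-0.13) and *COX8B* (-0.12) went past it. At probe level, 21 of the 24 complex IV probes were lower in the LN pool, and 72 of 93 over all subunits, which include them. Probes of a gene are not independent, and the share of lower probes over the whole array is not given here. These probe counts are thus a description only.

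**Figure D2:**
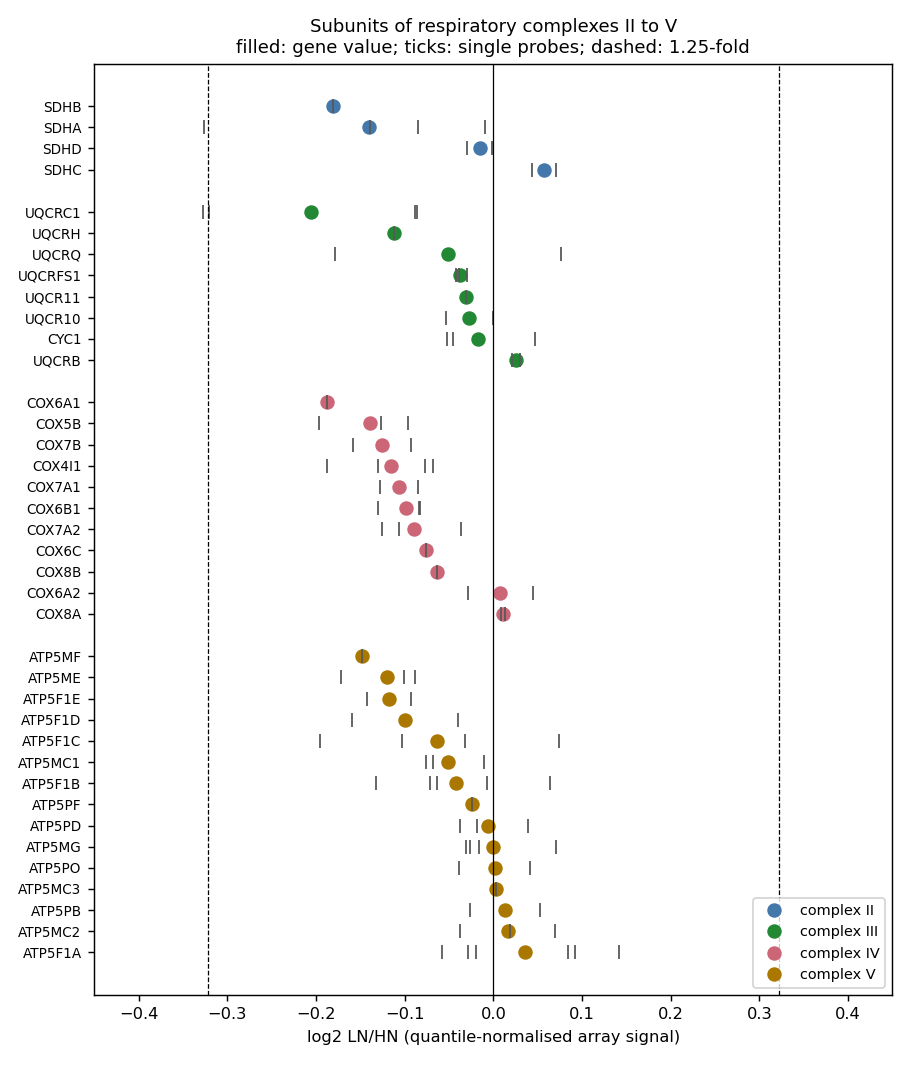
Log2 LN/HN of the 38 subunits with a value (filled circles, coloured by complex) and of their 93 probes (vertical ticks), with dashed lines at the fold threshold (log2 0.32). No gene value reaches the lines, 29 lie below 0, and the only probes past them are 1 of *SDHA* and 1 of *UQCRC1*.

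The muscle forms of complex IV subunits were set against their general forms pair by pair, since a shift between them would change the type of the enzyme. *COX6A2*, the muscle form of subunit VIa, had log2 signals of 16.03 in HN and 16.04 in LN (log2 LN/HN 0.0076, probes -0.029 and 0.044), while its general form *COX6A1* had 11.58 and 11.40 (-0.19, 1 probe). The muscle form was thus higher by 0.19 relative to the general form in the LN pool, within the 95% limit of the spot error for this pair (0.21) and beyond that of bright probes (0.12). The value of *COX6A2* itself was below 0 in 4 of the 12 processing settings. *COX7A1*, the muscle form of subunit VIIa, had 16.31 and 16.21 (-0.11, probes -0.13 and -0.08), and *COX7A2*, the general form, had 11.89 and 11.80 (-0.090, with 3 probes between -0.13 and -0.04). Their difference of -0.017 was within both limits (0.15 and 0.087). *COX8B*, the muscle form of subunit VIII, had 16.27 and 16.21 (-0.064, 1 probe), and *COX8A* had 12.60 and 12.61 (0.011, probes 0.009 and 0.013), a difference of -0.075 within both limits (0.21 and 0.12).

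The 3 pairs therefore did not point one way. The median log2 LN/HN was -0.064 for the muscle forms and -0.090 for the general forms. The difference between these medians was 0.026, with a range of -0.034 to 0.062 over the processing settings, and it was below 0 in 3 of the 12. Over the settings, *COX6A2* minus *COX6A1* ranged from 0.13 to 0.19, *COX8B* minus *COX8A* from -0.13 to -0.073 and *COX7A1* minus *COX7A2* from -0.067 to -3.6e-05, so that the last was level in one setting. The signal of one probe cannot be set against that of another, so which form was the more abundant is not given by these values.

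**Figure D3:**
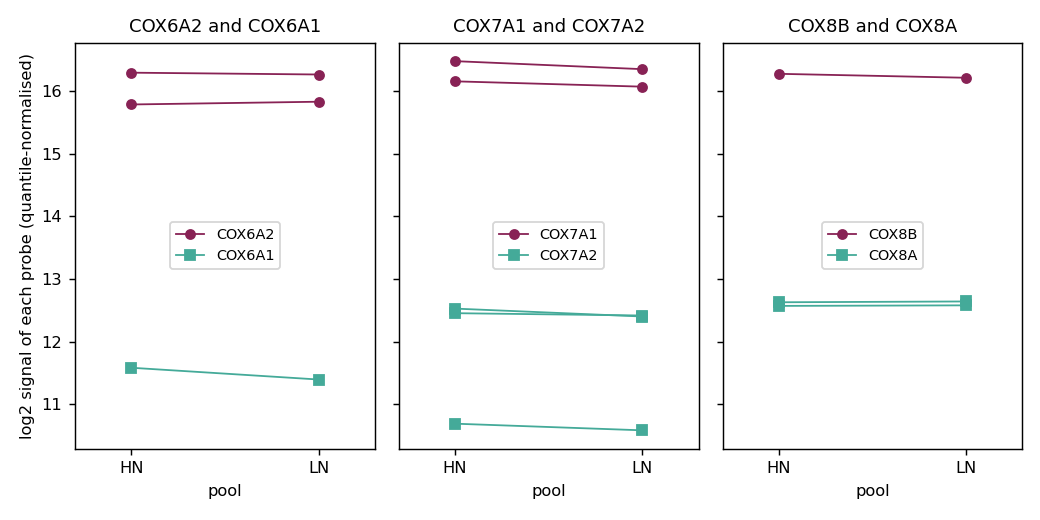
Log2 signal of each probe in the HN and LN pools for the muscle forms (circles) and general forms (squares) of 3 complex IV subunits. The lines are close to flat in each pair, and that of *COX6A1* shows the largest difference (11.58 to 11.40). Heights of different probes are not comparable.

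Complex V, the ATP synthase, was nearest to level, with a median log2 LN/HN of -0.024 over 15 genes, 10 of them lower. The catalytic head and central stalk, where ATP is formed, had a median of -0.064 (-0.032 with the brightest probe of a gene). *ATP5F1A* and *ATP5F1B*, the alpha and beta subunits of the head, had log2 signals of 15.19 in HN and 15.22 in LN (0.035) and of 13.99 and 13.95 (-0.042). The 6 probes of *ATP5F1A* ranged from -0.058 to 0.14 and the 5 of *ATP5F1B* from -0.13 to 0.064. The central stalk genes were lower, *ATP5F1C* (gamma) with 13.22 and 13.16 (-0.064), *ATP5F1D* (delta) with 13.24 and 13.14 (-0.10) and *ATP5F1E* (epsilon) with 16.39 and 16.27 (-0.12).

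The rotating ring of ATP synthase is made of subunit c, for which *ATP5MC1*, *ATP5MC2* and *ATP5MC3* encode the same mature protein. *ATP5MC1* had log2 signals of 15.91 in HN and 15.86 in LN (-0.051), *ATP5MC2* had 16.72 and 16.74 (0.017), and *ATP5MC3* had 15.31 and 15.31 (0.0034). Whether the probes tell these related transcripts apart was not examined, because probe sequences were not used here. The peripheral stalk, which keeps the head from turning with the ring, was close to level. Its genes *ATP5PB* (14.04 and 14.05), *ATP5PD* (15.41 and 15.41), *ATP5PF* (14.98 and 14.96) and *ATP5PO* (14.38 and 14.38) had log2 LN/HN values between -0.024 and 0.013. The SD between them was 0.016, but with the brightest probe of each gene their values were further apart, from -0.038 to 0.052.

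The small membrane subunits of complex V, which help the enzyme to form dimers, held its lowest values as processed here. Without normalization and after subtraction of the 75th percentile, *ATP5F1E* of the central stalk was the lowest instead (-0.14 and -0.18). *ATP5MF* had log2 signals of 14.14 in HN and 13.99 in LN (-0.15, 1 probe), and *ATP5ME* had 16.65 and 16.53 (-0.12), with all 3 probes lower (-0.17 to -0.088). *ATP5MG* was level, at 15.91 in both pools (-0.0004, 4 probes from -0.031 to 0.071). Their median was -0.12 and stayed between -0.16 and -0.088 over the processing settings. In contrast, the subunit c median was below 0 in 4 of the 12 settings and the peripheral stalk median in 10.

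The order of the complexes held in part. Complex IV had the lowest median in all 12 settings, and the median of complex IV minus that of complex V ranged from -0.0951 to -0.0486. The settings were not independent, so this count overstates how far the order was tested. The filters on background and outlier flags repeated the main values of the subunits. Subtraction of a percentile shifted the unnormalized subunit values by a constant, which cannot change their order. The minimum on probe signal left the medians of complexes III, IV and V as they were. The medians of complexes II and III ranged from -0.089 to -0.0055 and from -0.072 to -0.033. Complex V was the highest in 8, which include the main setting and the filter settings that repeat it. All 4 complexes had a median below 0 in each setting, although that of complex II came to -0.0055 when genes were read from their brightest probes. The values of single genes overlapped between complexes, with complex IV between -0.19 and 0.011 and complex V between -0.15 and 0.035. The error of a median over several genes was not estimated.

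**Figure D4:**
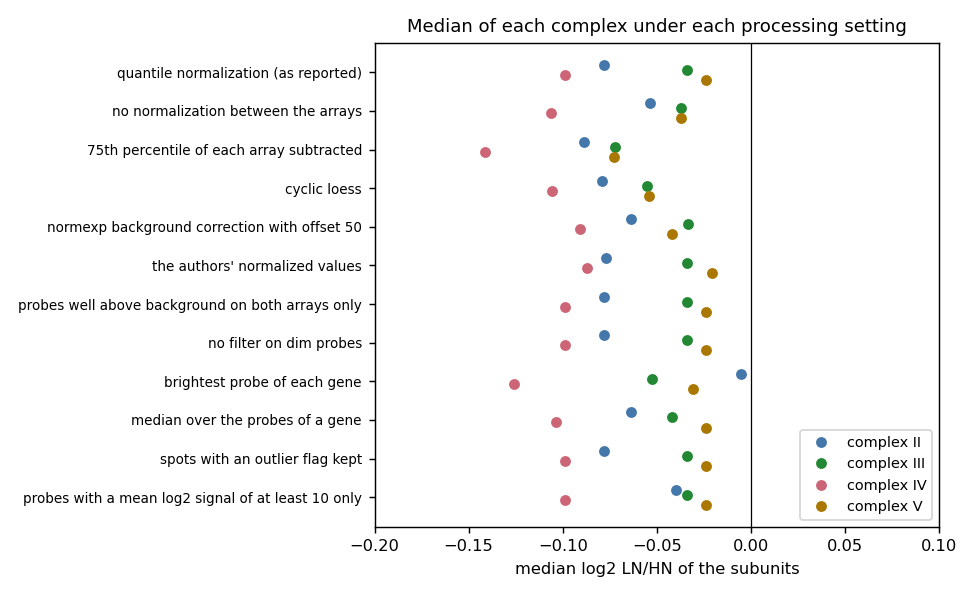
Median log2 LN/HN of the subunits of each complex (coloured circles, horizontal axis) under each way of processing the arrays (vertical axis). Complex IV is lowest in every setting, between -0.14 and -0.087, and complex V lies between -0.073 and -0.021. Several settings share the same subunit values.

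Probes of the same gene were compared as a check on single values. In 29 subunits with several probes, all probes had one sign in 18, lower in 15 and higher in 3, and the median SD between probes was 0.048. The share of such genes over the whole array is not given here. That SD was 0.057 for genes of the same signal range and 0.098 for all genes. The 4 subunit probes with a mean log2 signal under 10 had a median of -0.32, of which those of *SDHA* and *UQCRC1* lay near -0.33 and that of *SDHD* at -0.029. The median was -0.10 for the 8 probes from 10 to 12, -0.040 for the 20 from 12 to 14, -0.032 for the 41 from 14 to 16 and -0.066 for the 20 of 16 or more. The values thus did not follow the signal steadily. Over the 93 probes, Pearson's r between signal and log2 LN/HN was 0.39 and Spearman's rho 0.16, a description in which probes share genes and arrays.

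Other components of the pathway were read from lists written by hand. Complex I, the largest entry point of electrons, resembled complexes II to V, with 27 of 36 genes lower, a median of -0.042, values between -0.19 (*NDUFV1*) and 0.065 (*NDUFS4*) and none past the fold threshold. Its median ranged from -0.072 to -0.030 over the processing settings. The assembly factors of complexes II to V, which insert cofactors and join subunits, lay on the other side of 0, with 19 of 29 higher, a median of 0.062 (0.020 with probes of log2 signal 10 or more) and 1 gene past the fold threshold. This was *SCO1*, a copper chaperone of complex IV, with log2 signals of 7.12 in HN and 7.59 in LN (0.47), but its 2 probes gave 0.05 and 0.89. *SDHAF1*, an assembly factor of complex II, was the lowest of them (10.76 and 10.54, -0.22). Among further subunits and isoforms of complexes III to V, 4 of 8 genes were lower (median -0.030, but 0.0051 without a filter on dim probes). *COX4I2*, the oxygen-regulated alternative of *COX4I1*, was past the fold threshold, with 9.46 in HN and 9.12 in LN (-0.34, 1 probe). *ATP5IF1*, the inhibitor of ATP synthase, had 15.27 and 15.11 (-0.16).

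The list of mobile electron carriers also held genes of ubiquinone synthesis, *HCCS*, *ETFA*, *ETFB* and *ETFDH*, so it was not limited to carriers. Of its genes 8 of 15 were lower, with a median of -0.015 that turned to 0.0072 without normalization. *CYCS*, cytochrome c, had log2 signals of 11.26 in HN and 11.21 in LN (-0.050). *COQ10A*, a ubiquinone-binding protein, was past the fold threshold, with 10.68 and 10.27 (-0.41, probes -0.43 and -0.40). The genes of ubiquinone tail synthesis were higher by less than that, *PDSS1* with 0.28 and *PDSS2* with 0.28. No probe was matched to the 6 subunits of complexes III to V in mitochondrial DNA, so these subunits, which include the catalytic core of complex IV, are not analysed here. Markers of mitochondrial content and biogenesis did not share the direction of the subunits, with 11 of 27 lower and a median of 0.037 (0.015 with the brightest probe of a gene to 0.067 without normalization). *PPARGC1A*, a coactivator of mitochondrial genes, was the highest (8.02 and 8.26, 0.24) and *NRF1*, a transcription factor for respiratory genes, the lowest (4.80 and 4.59, -0.21, 1 probe). *CS*, citrate synthase, had 10.81 and 10.99 (0.18), but its 3 probes ranged from -0.01 to 0.35.

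**Figure D5:**
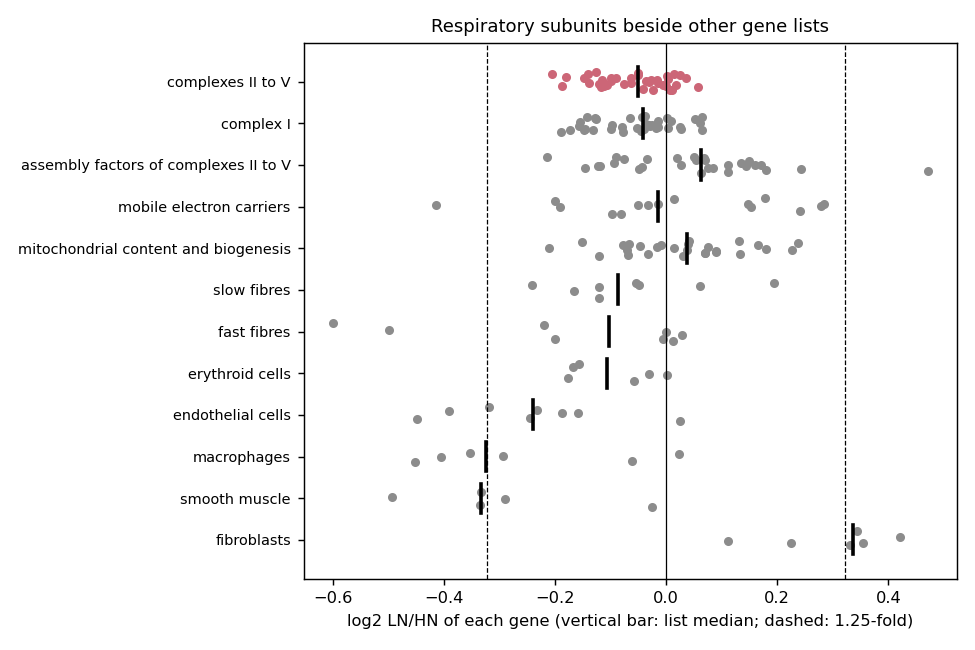
Log2 LN/HN of each gene (circles) by list, with the list median as a vertical bar and the fold threshold (log2 0.32) as dashed lines. Complexes II to V and complex I lie within the dashed lines with medians of -0.051 and -0.042, while fibroblast genes have a median of 0.34 and smooth muscle genes one of -0.33.

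Markers of fibre types, in lists that share some genes, and of other cells also differed between the pools, and their part in the subunit values was not tested. Of the slow fibre genes 6 of 8 were lower (median -0.088) and of the fast fibre genes 5 of 8, with 2 higher (median -0.10). *ACTN3* was at -0.60 (2 probes, -0.74 and -0.46) and *MYH1* at -0.50 (6 probes from -0.81 to -0.07). *MB*, myoglobin, which stores oxygen in muscle, had log2 signals of 15.69 in HN and 15.32 in LN (-0.37), past the fold threshold. The fibre lists also moved with the processing, as the slow fibre median was -0.018 with the brightest probe of a gene and the fast fibre median -0.031 in the normalized values of the authors. The summed intensity in the LN pool was 96.1% of that in the HN pool for slow fibre genes and 97.9% for fast fibre genes. The same share was 93.7% for complex II, 96.9% for complex III, 94.4% for complex IV and 97.2% for complex V. Such sums add signals of different probes and weigh the brightest genes most. In the fast fibre sum these include *TNNC2*, at log2 18.35 in both pools after normalization, from intensities of 342320 in HN and 326690 in LN. The shares of the lists are therefore not closely comparable. Lower were endothelial genes (7 of 8, median -0.24, sum 80.5%), macrophage genes (5 of 6, -0.32, 79.0%) and smooth muscle genes (5 of 5, -0.33, 80.0%), whereas all 6 fibroblast genes were higher (0.34, 122%). Past the fold threshold were *CLDN5* (-0.39) and *EGFL7* (-0.45) of endothelium, the complement genes *C1QB* (-0.45) and *C1QC* (-0.40) with *CD68* (-0.35) of macrophages, and *ACTA2* (-0.33), *MYH11* (-0.49) and *TAGLN* (-0.33) of smooth muscle. Of the fibroblast genes 4 were past it, the collagen genes *COL1A1* (0.34), *COL1A2* (0.42) and *COL3A1* (0.33) and the proteoglycan gene *LUM* (0.35). Erythroid genes had a median of -0.11 (5 of 6 lower, sum 96.5%), which was -0.032 after the normexp background correction. The genes of embryonic and neonatal muscle lay far apart, with *MYL4*, an embryonic myosin light chain, at -0.97, *MYH8*, the neonatal myosin heavy chain, at 0.35 (3 probes from 0.04 to 0.61) and *CHRNG*, the fetal subunit of the acetylcholine receptor, at -0.12. *MYH3*, the embryonic myosin heavy chain, was close to level at -0.036 (probes -0.12 and 0.05). Adipocyte genes had a median of 0.080 (2 of 4 lower, sum 120%), which turned to -0.016 without a filter on dim probes and was 0.17 with the brightest probe. *FABP4*, a fatty acid carrier, was past the fold threshold (0.39), and *LEP* and the brown fat marker *UCP1* were not well above background on either array. Skeletal muscle markers had a median of -0.15, with 6 of 9 lower, but of -0.037 with the brightest probe of a gene and -0.081 in the normalized values of the authors.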

How the data were processed

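LT muscle RNA was measured on 1 one-color array per pool of 4 fetuses. The authors deposited background-corrected, detrended spot intensities from Agilent Feature Extraction 11.0.1.1, and quantile-normalized values, taken here as log2 values (30027 probes, including all 93 used here).

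Log2 intensities of 43803 non-control spots were normalized by the quantile method (limma 3.58.1, R 4.3.3), as in the study. Spots with an outlier flag were removed (13, none of a subunit), and spots of a probe were averaged. A gene was given the mean of its probes well above background on at least 1 array, with a dim side set to the detection limit of that array. Python 3.11.15, numpy 2.4.6, pandas 2.3.3 and matplotlib 3.10.9 were used, and the steps were tested on simulated data. Accessions were matched to symbols of the ARS-UCD2.0 gene table (26742 of 43652 probes). The array design refers to another assembly, so no coordinates are given.

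The members and the lists were chosen with earlier results of these data known. All members are named, and from other lists the genes past the fold threshold and some defining genes and extremes. The 11 alternatives are given in the closing section. The number of arrays limits the precision, and the spots behind the error estimates are few.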

Additional observations from a re-analysis of the deposited data

How the results depend on the processing

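The medians, member values, isoform differences and, for the subunits, counts by direction and by fold threshold were recomputed under 11 alternatives: no normalization, subtraction of the 75th percentile, cyclic loess, the normexp background correction (offset 50, on median spot signals), the normalized values of the authors, another filter on dim probes or none, the brightest or the median probe of a gene, spots with outlier flags kept, and, chosen after seeing the data, probes of log2 signal 10 or more. The filters on background and outlier flags could not change a subunit, since all 93 probes passed them. In counts of settings for the subunits, these alternatives therefore repeat the main result. In each alternative, no subunit was past the fold threshold, between 29 and 36 of 38 were lower, and their median lay between -0.087 and -0.041. The median of all genes moved most with the 75th percentile, to -0.042. Changes of at least the SD of a single spot (0.085) were the following. With the brightest probe, *SDHA* came to -0.0096, *UQCRC1* to -0.088 and *UQCRQ* to -0.18, the skeletal muscle median to -0.037 and the adipocyte median to 0.17. The adipocyte median was -0.016 without a filter on dim probes, the macrophage median -0.22 after normexp, and with probes of log2 signal 10 or more the smooth muscle median was -0.24 and *UQCRC1* -0.087. That SD is wide for a median over several genes, and smaller medians changed by over 1.5 times without reaching it, such as that of complex II (-0.078 to -0.0055, brightest probe), complex V (-0.024 to -0.073, 75th percentile) and subunit c (0.0034 to -0.055, 75th percentile). The adipocyte list had no value with probes of log2 signal 10 or more. Counts past the spot error, counts by direction and by fold threshold in the other lists, summed intensities and spreads between probes were not recomputed. No paired analysis was possible because each group has 1 array.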
